A study of Mus musculus with 6 samples.

Results

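Neutrophil granule genes were followed in the spleens of weanling mice exposed to lead (Pb) during development. They were taken by symbol, as 10 named genes (Mpo, Elane, Prtn3, Ctsg, Ms4a3, Ltf, Camp, Ngp, S100a8 and S100a9). Probes with one of these symbols as their only gene name numbered 11 of 35587 on the array, which named 18069 genes in this way, since Ms4a3 has a pair of probes. The study exposed 3 female BALB/c mice to 0.1 mM Pb from gestation day 8 and compared them with 3 unexposed female BALB/c mice. All 6 spleens were taken at postnatal day 21, and each total RNA was hybridised to 1 CodeLink whole genome array read in 1 colour. The labels do not state the route of exposure. The tissue is whole spleen, so fewer cells of a type and less RNA per cell cannot be told apart.

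Neutrophils store their antimicrobial proteins in granules that are filled one after the other as the cell matures. Promyelocytes, the early stage, transcribe myeloperoxidase and the serine proteases of the azurophil (primary) granule. Myelocytes and later stages transcribe the contents of the specific and gelatinase granules and the S100 proteins of the cytosol. Mature neutrophils transcribe little of the early set, and the red pulp of the mouse spleen makes blood cells, granulocytes among them, after birth. Early genes are here Mpo, Elane, Prtn3, Ctsg and Ms4a3, and late genes Ltf, Camp, Ngp, S100a8 and S100a9.

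The arrays differed in quality. In Pb replicate 3 bright and dim probes were not those of the other arrays (r with the controls of 0.045 to 0.051 over all probes, against 0.937 to 0.940 between controls), and that array is left out. The brightness of Pb replicate 2 drifted along the array rows, by -2.45 to 2.36 on the log2 scale in medians of 20 rows, and medians of 5 rows in Pb replicate 1 ran between -1.08 (row 127) and 0.45 (row 2). A smooth surface over array row, array column and brightness was removed from each array, and 34949 probes were kept, without the 638 of the last array rows. After this the spread of the deviations from the control mean (median absolute deviation scaled to an SD, 24464 probes above the brightness filter) was 0.31 in Pb replicate 1 and 0.50 in Pb replicate 2, against 0.15 to 0.17 in the controls, which are part of that mean. Levels below are log2 intensities after this step, and differences are log2 differences. The level of one probe cannot be set against that of another.

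In the spleen of Pb replicate 1 all 10 granule genes were above all 3 controls, by a median of 0.79 over the control mean, or 1.73-fold. That array was above all 3 controls for 27.8% of the tested probes, highest of the 5 arrays for 18.1%, as it was for all 10 granule genes, and above the control mean for 49.4%. In the spleen of Pb replicate 2 the granule genes had a median of 0.05 over the control mean. There 1 of the 10, Ms4a3, was above all 3 controls, against 40.4% of the tested probes, and 2, Elane and Ngp, were below all 3, against 31.7%. It was above the control mean for 7 of 10 genes, against 55.4% of the tested probes. Pb replicate 1 was also above Pb replicate 2 for all 10 genes, by 0.13 to 1.31, against 46.1% of the tested probes. With both Pb arrays together, 0 of the 10 genes passed the adjusted threshold of 0.05 in limma (adjusted p of 0.621 to 0.880), and 1 had an unadjusted p under 0.05. The differences in that fit were 0.18 to 0.79, with a median of 0.34 for the early and 0.37 for the late genes. Over all tested probes 0.0572% passed as higher and 0% as lower, and 3.94% were higher at an unadjusted p under 0.05. Without the position correction, 7 of the 10 genes were above all 3 controls in Pb replicate 1. The share of all probes was not computed for uncorrected values.

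**Figure D1:**
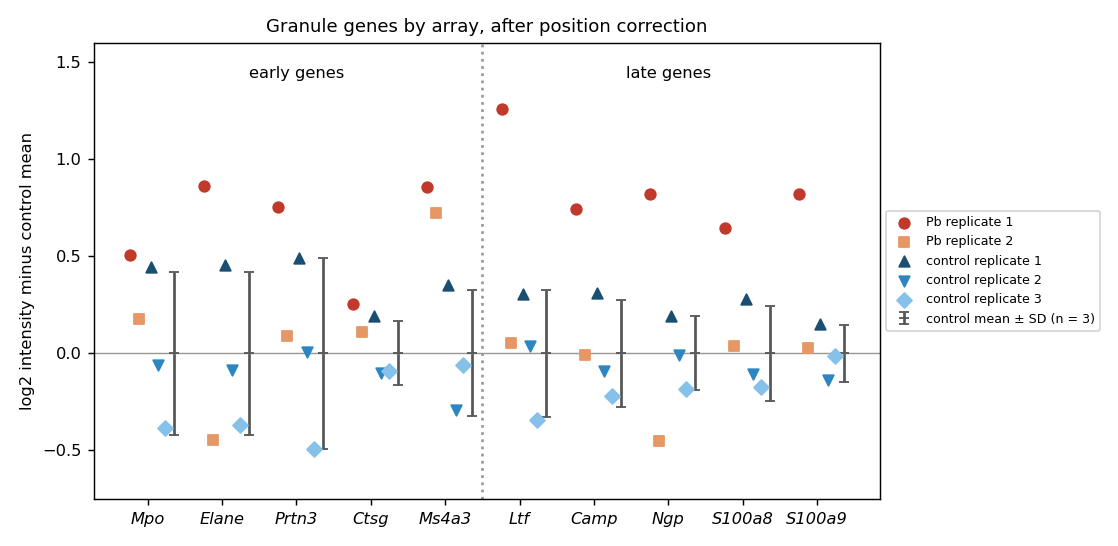
Log2 intensity of the 10 granule genes in each of 5 arrays, as the difference from the mean of the 3 controls (vertical axis), with early genes left and late genes right of the dotted line. Points are single animals, and bars give the control mean ± SD (n = 3). The points of Pb replicate 1 are the highest for each gene, those of Pb replicate 2 lie among the controls or below them except for Ms4a3, and control replicate 1 is the highest control throughout.

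Among the early genes, Mpo encodes myeloperoxidase, which makes hypochlorous acid. Its level was 5.38 and 5.05 in Pb replicates 1 and 2, against 5.32, 4.81 and 4.49 in controls. Pb replicate 1 was thus only 0.06 above control replicate 1, and the groups overlapped. Elane, neutrophil elastase, was at 5.96 and 4.65 in Pb replicates 1 and 2, against 5.56, 5.01 and 4.73 in controls. Pb replicate 1 was the highest of the 5 arrays and Pb replicate 2 the lowest. Prtn3, proteinase 3, was at 3.89 and 3.22 in Pb replicates 1 and 2, against 3.62, 3.14 and 2.64 in controls. Pb replicate 2 was close to the control mean of 3.13 ± 0.49 (SD, n = 3). Ctsg, cathepsin G, was at 2.42 and 2.28 in Pb replicates 1 and 2, against 2.36, 2.07 and 2.08 in controls. Its difference in Pb replicate 1, 0.26, was the smallest of the 10 genes.

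Ms4a3 encodes a membrane protein of granulocyte and monocyte progenitors. It was the only one of the 10 genes with both Pb arrays above all controls, at 1.70 and 1.57 in Pb replicates 1 and 2, against 1.20, 0.56 and 0.79 in controls. Both Pb arrays were above all controls for 14.1% of the tested probes. The log2 difference was 0.79 (95% confidence interval 0.22 to 1.36), with an unadjusted p of 0.015 and an adjusted p of 0.621 (limma). The other probe of Ms4a3 did not show this. It lay under the brightness filter at -2.05 and -1.22 in Pb replicates 1 and 2, against -1.02, -1.91 and -2.01 in controls. The gene thus rests on 1 of 2 probes that disagree. The place of the brighter probe in Pb replicate 2 also depended on the correction. Its difference there was 0.72 after the smooth surface, 0.33 after removal of nearby probes (below) and 0.20 as deposited. As deposited, its intensity was 1.96 in Pb replicate 2, against 2.51 in control replicate 1.

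Of the early genes, Elane and Prtn3 are direct neighbours on chromosome 10, and the stretches before their starts are shown because these neighbours encode related proteases of one granule. The stretches are the 250 bases before the RefSeq start on GRCm38.p6, from chr10:79886062-79886311 (plus strand) for Elane and chr10:79879417-79879666 (plus strand) for Prtn3. Capitals mark 3 motifs searched on both strands: AGGAAG, a PU.1 core, GCAAT, part of the site of the C/EBP factors, and AACGG, a Myb core.
Elane: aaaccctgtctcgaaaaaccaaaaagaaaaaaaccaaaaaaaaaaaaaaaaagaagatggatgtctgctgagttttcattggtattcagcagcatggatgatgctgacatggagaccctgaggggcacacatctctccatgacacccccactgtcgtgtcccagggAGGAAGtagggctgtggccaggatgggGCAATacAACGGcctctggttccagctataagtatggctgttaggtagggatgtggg
Prtn3: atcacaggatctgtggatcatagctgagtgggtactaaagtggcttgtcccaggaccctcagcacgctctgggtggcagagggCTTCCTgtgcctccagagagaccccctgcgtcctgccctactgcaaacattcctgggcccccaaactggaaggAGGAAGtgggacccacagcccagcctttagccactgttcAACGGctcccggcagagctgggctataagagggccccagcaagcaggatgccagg
In both stretches AGGAAG stands before AACGG, with first bases 84 and 50 bases before the start in Elane and 94 and 55 bases before it in Prtn3. AACGG was found before 2 of the 10 genes, these 2, and in 14.5% of 32841 such stretches. AGGAAG was found before all 5 early and 3 of 5 late genes, and in 29.5% of all stretches. These are matches of letters and not shown sites.

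Among the late genes, Ltf, the iron-binding lactoferrin of specific granules, had the largest difference of the 10 genes. It was at 4.73 and 3.52 in Pb replicates 1 and 2, against 3.78, 3.51 and 3.13 in controls, so Pb replicate 1 was 2.40-fold over the control mean while Pb replicate 2 was among the controls. Camp, the cathelicidin antimicrobial peptide, was at 6.30 and 5.55 in Pb replicates 1 and 2, against 5.86, 5.47 and 5.34 in controls. Here too Pb replicate 2 lay among the controls. Ngp, the neutrophilic granule protein, was at 7.40 and 6.13 in Pb replicates 1 and 2, against 6.77, 6.57 and 6.39 in controls. As with Elane, Pb replicate 1 was the highest array and Pb replicate 2 the lowest. S100a8 and S100a9 encode the subunits of calprotectin, a metal-binding protein of the neutrophil cytosol. S100a8 was at 6.85 and 6.25 in Pb replicates 1 and 2, against 6.49, 6.10 and 6.04 in controls. S100a9 was at 7.01 and 6.22 in Pb replicates 1 and 2, against 6.34, 6.05 and 6.18 in controls. The subunits thus showed one pattern, with Pb replicate 1 above and Pb replicate 2 among the controls.

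The stretches before Ltf and Camp are shown to set the late genes beside Elane and Prtn3. They are taken in the same way from chr9:111019042-111019291 (plus strand) for Ltf and chr9:109849457-109849706 (minus strand) for Camp, with the same motifs in capitals.
Ltf: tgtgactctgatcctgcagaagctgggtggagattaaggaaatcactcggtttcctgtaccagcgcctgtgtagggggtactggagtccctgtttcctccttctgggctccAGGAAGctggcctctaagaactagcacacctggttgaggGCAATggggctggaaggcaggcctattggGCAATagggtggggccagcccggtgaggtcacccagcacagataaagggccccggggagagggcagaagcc
Camp: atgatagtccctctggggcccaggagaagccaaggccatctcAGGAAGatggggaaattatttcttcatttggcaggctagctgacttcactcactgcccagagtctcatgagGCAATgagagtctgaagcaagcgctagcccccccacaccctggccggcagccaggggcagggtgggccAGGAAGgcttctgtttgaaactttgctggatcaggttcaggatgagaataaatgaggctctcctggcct
The motif GCAAT was found before all 5 late and 2 of 5 early genes, and in 23.1% of all stretches. Ltf held 2 matches of it. AACGG was found before none of the 5 late genes. Camp, Ngp and Ltf all lie on chromosome 9 but are not direct neighbours, and S100a8 and S100a9 are direct neighbours on chromosome 3.

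Set against the control mean, the early and late genes did not separate after removal of the smooth surface. In Pb replicate 1 the median difference was 0.76 for the early and 0.82 for the late genes, an early minus late value of -0.06. In Pb replicate 2 it was 0.11 for the early and 0.03 for the late genes, an early minus late value of 0.08. The same quantity was 0.16, 0.00 and -0.18 in control replicates 1, 2 and 3, so both Pb arrays lay within the spread of the controls. This depended on the way of correction. A smooth over array rows only gave -0.37 and 0.29 in Pb replicates 1 and 2, and removal of nearby probes (below) also set early above late genes in Pb replicate 2. No p is given for these scores, since the genes were chosen with results of these data known.

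Taken alone against the 3 controls, Pb replicate 1 had 7 of the 10 genes at an unadjusted p under 0.05 as higher in limma, namely the 5 late genes, Ms4a3 and Elane, where 3.29% of all tested probes were. None of the 10 passed the adjusted threshold (adjusted p of 0.594 to 0.713), which 0.0695% of probes passed as higher and 0.00409% as lower. The largest was Ltf, with 1.26 (95% confidence interval 0.54 to 1.98, adjusted p = 0.594, limma), and S100a9 had 0.82 (0.34 to 1.31, adjusted p = 0.594, limma). Such a fit takes the spread of 1 Pb animal from that of the controls. Taken alone, Pb replicate 2 had 0 of 10 genes past the adjusted threshold (adjusted p of 0.165 to 0.987, limma), where 5.29% of probes passed as higher and 5.92% as lower. Its deviations from the controls were the widest, as given above.

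Control animals differed among themselves in the same genes. After the correction, control replicate 1 was the highest control for all 10 genes, against 33% of the tested probes. It exceeded the mean of control replicates 2 and 3 by a median of 0.67 for the early and 0.42 for the late genes. As deposited, S100a9 was highest in control replicate 3, with an intensity of 77.0, against 69.8 in control replicate 1. From the same mean of control replicates 2 and 3, Pb replicate 1 differed by 0.73 for Mpo, against 0.67 for control replicate 1. For Elane it differed by 1.09, against 0.68, and for Prtn3 by 1.00, against 0.73. Among late genes, it differed by 1.41 for Ltf, against 0.46, and by 0.78 for S100a8, against 0.42. Measured against control replicates 2 and 3 alone, Pb replicate 1 had medians of 1.00 for the early and 0.90 for the late genes. Pb replicate 2 had 0.33 and 0.14 and lay above both for 8 of 10 genes. Pb replicate 2 was above all 3 controls for 40.4% of the tested probes. Its share above control replicates 2 and 3 alone, which cannot be lower, was not computed.

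The values of Pb replicate 2 changed most with the position correction. As deposited, the intensity of Ngp was 115.4 and 11.5 in Pb replicates 1 and 2, against 128.8, 96.0 and 104.9 in controls. That of Mpo was 30.7 and 87.9 in Pb replicates 1 and 2, against 45.7, 28.6 and 26.0 in controls. Ngp lies in array row 101, where Pb replicate 2 was dim, and Mpo in row 218, where it was bright. The median uncorrected difference of probes of like brightness around them in Pb replicate 2 (25 probes for Ngp, 73 for Mpo) was -3.03 for Ngp and 1.21 for Mpo. The genes' own uncorrected differences, -3.24 for Ngp and 1.44 for Mpo, were close to these.

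**Figure D2:**
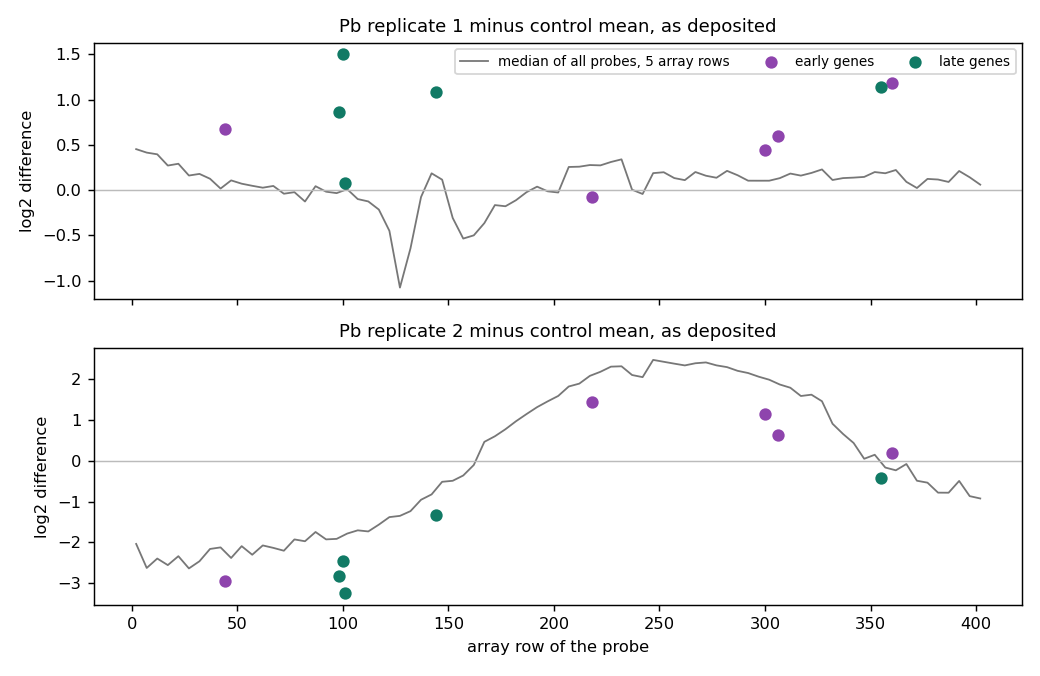
Uncorrected log2 difference from the control mean (vertical axes) against array row (horizontal axis) in Pb replicate 1 (top) and Pb replicate 2 (bottom). The line is the median of all probes in 5 rows, and dots are the early and late granule genes. In Pb replicate 2 the genes run from -3.24 (Ngp, row 101) to 1.44 (Mpo, row 218), as the line does in direction, and in Pb replicate 1 all but Mpo lie above the line.

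A second way of removing position, added after the data had been seen, took from each gene the median of the probes within 10 rows, 14 columns and 1.5 log2 units of brightness, 10 to 171 probes a gene. In Pb replicate 1 it gave medians of 0.76 for the early and 0.85 for the late genes. It put 9 of 10 genes above all controls, and the share of all probes was not computed for it. In Pb replicate 2 it gave 0.23 for the early and -0.36 for the late genes. The smooth surface had given the late genes 0.03 there, so their value in Pb replicate 2 depended on the way of correction. Probes of like brightness around Ltf and S100a8 kept a median of 0.43 above the controls in Pb replicate 2 after the smooth surface, and those around Camp 0.34. Around the other late genes the median was 0.02 for S100a9 and -0.17 for Ngp. The part of this in the late genes' values was not tested. In Pb replicate 1 the corresponding medians of all 10 genes lay between -0.13 and 0.09.

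**Figure D3:**
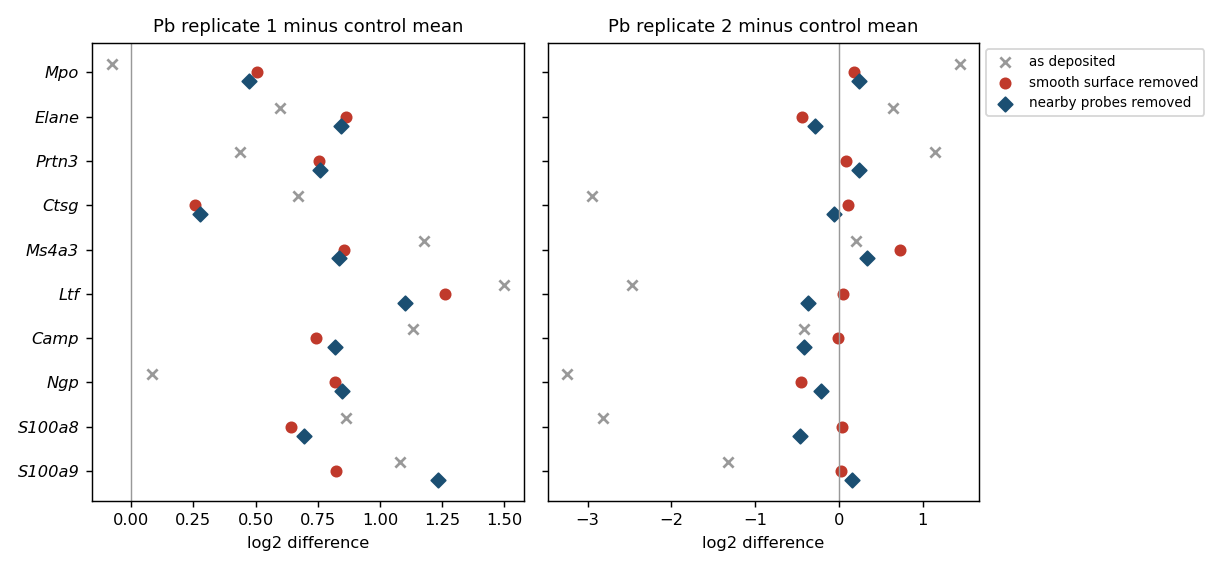
Log2 difference from the control mean (horizontal axes, scaled separately) of the 10 genes in Pb replicate 1 (left) and Pb replicate 2 (right), as deposited, after removal of the smooth surface and after removal of the median of nearby probes. In Pb replicate 1 all 10 genes lie above 0 under both corrections. In Pb replicate 2 the values as deposited run from -3.24 for Ngp to 1.44 for Mpo, and both corrections bring them to between -0.47 and 0.72.

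Of 16 measured genes of specific and gelatinase granules, 13 were above all controls in Pb replicate 1, against 27.8% of the tested probes, and 1 in Pb replicate 2, against 40.4%. Their medians over the control mean were 0.45 and -0.23. In Pb replicate 2 single genes of this list ran from -2.63 to 0.89. The medians of all tested probes were -0.0047 and 0.06. Anxa1, annexin A1 of gelatinase granules, was at 6.14 and 5.48 in Pb replicates 1 and 2, against 5.74, 5.77 and 5.61 in controls. Chil3, a chitinase-like protein, was at 4.43 and 3.09, against 3.74, 3.73 and 3.39 in controls. Pglyrp1, which binds bacterial peptidoglycan, differed by 0.52 and -0.15 in Pb replicates 1 and 2, and Retnlg, a resistin-like protein, by 0.22 and -0.28. With both Pb arrays together, 0 of the 16 passed the adjusted threshold (limma, lowest adjusted p = 0.621).

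Other genes of the azurophil granule and of protease handling, 9 measured, had medians of 0.19 and -0.03 in Pb replicates 1 and 2, and 5 and 4 of them lay above all controls, against 27.8% and 40.4% of the tested probes. Lyz2, a lysozyme, differed by 0.27 and -0.37, and Srgn, the proteoglycan that holds the proteases in the granule, by 0.19 and 0.31. Ctsc, which activates the serine proteases, differed by -0.08 and -0.54, and Plac8 by 0.49 and 0.22. These genes are transcribed in macrophages or lymphocytes as well. The 5 measured genes of the NADPH oxidase had medians of 0.18 and 0.15. Rac2, its GTPase, was at 0.18 and 0.15 and Cyba, a membrane subunit, at 0.44 and -0.47. In Pb replicate 2 single genes of the oxidase ran from -4.80 to 0.34, a spread that the median does not show. With both Pb arrays together, 0 genes of either list passed (limma, lowest adjusted p = 0.621).

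Of 9 measured surface and receptor genes of mature neutrophils 2 were above all controls in Pb replicate 1, against 27.8% of the tested probes, and 2 in Pb replicate 2, against 40.4%. Their medians were 0.02 and -0.01. Of these 9 genes 7 were above the brightness filter, and Cxcr2 and Trem1 lay under it. The number of mature neutrophils was not measured. Itgb2, the shared integrin beta chain of leukocytes, differed by 0.02 and -0.01 in Pb replicates 1 and 2. The chemokine receptor Cxcr4 differed by 0.08 and 0.14. Selplg differed by 0.44 and -0.01, and neither Pb array was above all controls for it. Fpr2, a receptor for formylated peptides, differed by 0.35 and -0.04. The 11 regulators of granulocyte transcription had medians of 0.06 and 0.10. Spi1, which encodes PU.1, differed by 0.05 and -0.53, Cbfb, the partner of the Runx factors, by 0.23 and 0.02, Cebpd by -0.01 and -0.17, and Irf8, which favours monocytes over granulocytes, by -0.03 and -1.04. With both Pb arrays together, 0 genes of either list passed (limma, lowest adjusted p of 0.621 and 0.625).

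**Figure D4:**
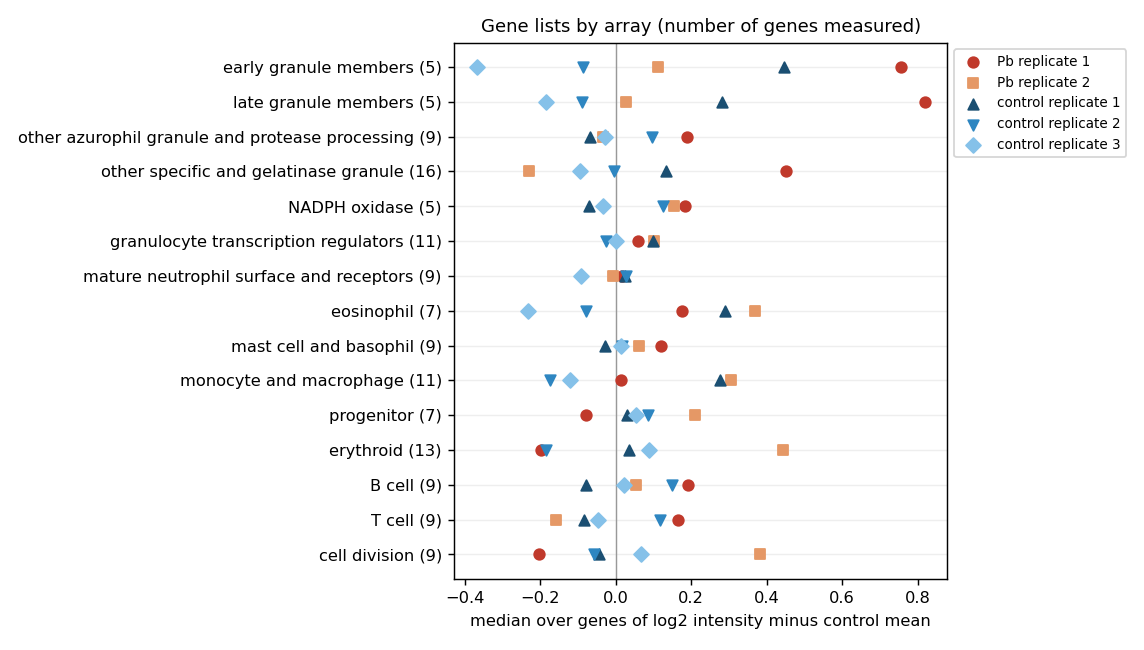
Median over the genes of each list of the log2 difference from the control mean (horizontal axis), by array, with the number of genes measured in brackets. The list of the exocrine pancreas, with medians of 5.16 and 5.56 in both Pb arrays, is not drawn. Early, late and other specific and gelatinase granule genes have the highest medians of Pb replicate 1 (0.76, 0.82 and 0.45), and erythroid and cell division genes those of Pb replicate 2 (0.44 and 0.38).

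Of 13 erythroid genes 0 were above all controls in Pb replicate 1, against 27.8% of the tested probes, and 11 in Pb replicate 2, against 40.4%, with medians of -0.20 and 0.44. Of 9 cell division genes 0 and 8 were, against the same shares, with medians of -0.20 and 0.38. The summed intensity of the erythroid list was 618.3 and 934.9 in Pb replicates 1 and 2, against 598.2 to 810.7 in controls. Of 10 measured genes of the exocrine pancreas, 10 were above all controls in both Pb arrays, against 14.1% of the tested probes. Their summed intensity was 147.9 and 212.4 in Pb replicates 1 and 2, against 15.2 to 17.8 in controls. With both Pb arrays together 6 of them passed as higher (limma, lowest adjusted p = 0.00876), against 0.0572% of the tested probes. The brightness filter took the mean of all 5 arrays. A gene dim in controls, such as Amy2a5 (control mean -3.86), was thus tested only through its Pb values. With no filter 0 probes passed. The 11 monocyte and macrophage genes had medians of 0.01 and 0.31 in Pb replicates 1 and 2, the 7 eosinophil genes 0.17 and 0.37, and the 9 mast cell and basophil genes 0.12 and 0.06. The 7 progenitor genes had -0.08 and 0.21. B and T cell genes, 9 of each, had medians of 0.19 and 0.05 and of 0.16 and -0.16. The summed intensity of the B cell genes, which mark the labelled tissue, was 226.1 and 207.1 in Pb replicates 1 and 2, against 193.2 to 213.6 in controls. The part of these cells in the levels of the granule genes was not tested.

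The summed intensity of the 5 early genes was 127.5 and 75.5 in Pb replicates 1 and 2, against 106.7, 74.9 and 61.2 in controls. That of the 5 late genes was 518.8 and 278.6 in Pb replicates 1 and 2, against 352.4, 285.8 and 271.2 in controls. These sums add up the same values after the smooth surface and are not a separate measure. In them only Pb replicate 1 stood above all 3 controls in both sets, and Pb replicate 2 was within the range of the controls. The late values of Pb replicate 2 depended on the way of correction, as given above.

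The genes most like the early set over the 5 arrays were sought among 11175 other tested probes with 1 symbol and a spread not far under that of the early mean. By Pearson's r with the mean of the early genes, over 5 arrays, they were Scml4 (r = 0.9998), Zeb2 (0.997), Tmem150a (0.996), Olfr1463 (0.990), Ccl9 (0.989), Olfr740 (0.988), 4930597A21Rik (0.985) and Thsd4 (0.985). The closest, Scml4, differed by 0.40 and 0.09 in Pb replicates 1 and 2, and the odorant receptor Olfr1463 by 1.06 and 0.38. Zeb2, a repressor of transcription expressed in myeloid cells, differed by 0.66 and 0.18, and Ccl9, a chemokine of myeloid cells, by 0.47 and 0.12. All points share the 5 arrays, and the list, which holds odorant receptors, is a description.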

How the data were processed

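Deposited were linear intensities per probe. Array medians were 0.972 to 0.987, and how the authors scaled the intensities, the scanner software and the background correction are not stated in the labels. Per the labels, total RNA of separate animals was labelled with Cy5. Precision is limited by the number of arrays.

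Values under the 1st percentile of an array's positive values were raised to it, and log2 was taken (151 to 711 values per array were at or under 0). Pb replicate 3 and 638 probes of the last array rows were left out. A tensor product smooth over array row, brightness and column (40, 6 and 8 basis functions, mgcv 1.9.3, R 4.3.3) was fitted 2 times to how each array departed from an average of 4 arrays, the controls with Pb replicate 1, and subtracted. Probes at or above the 30th percentile of the mean (24464) were tested with limma 3.58.1 (lmFit, eBayes, two-sided, Benjamini-Hochberg). The steps were run on simulated data with drift along array rows and with brightness, but none along columns. The planted differences were larger than those of the granule genes, so that run does not bear on differences of their size.

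Of all probes, 21615 had 1 symbol in the platform annotation, 681 had several and 13291 were not listed. All 10 genes are named with each probe, and of the other granule lists at most the 4 tested genes with the highest mean level, each by its brightest probe. Promoter stretches and gene neighbours are from RefSeq (GRCm38.p6), where all 10 genes were found. Genes, lists, array set and correction were chosen with earlier results of these data known.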

Additional observations from a re-analysis of the deposited data

Results flagged for a closer look

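In the array of Pb replicate 3, which is left out of all comparisons, 2 of the 11 probes had a deposited intensity above all 3 controls. They were Ctsg, with 14.6 against at most 4.54 in controls, and the brighter probe of Ms4a3, with 4.74 against at most 2.51. That array stood apart from the others over all probes, so neither is read as a level of the gene.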

How the results depend on the processing

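Of 130 values of single genes in Pb replicate 1 under 13 alternatives, 128 stayed above 0. The exceptions were Mpo without position correction and with a smooth over rows only. Ngp stayed above 0 under these settings but fell to 0.08 and 0.16, against 0.82. S100a9 gained a call with a pseudocount of 1 (1.14, adjusted p = 0.0372, limma). Under the 16 alternatives that keep both Pb arrays, 160 values gave 0 calls (lowest adjusted p = 0.214, limma) and 20 changes of sign. All 10 genes were above all controls in Pb replicate 1, against 7 without correction and with rows only, and 9 with 15 basis functions, a pseudocount or nearby probes. Shares of all probes above the controls were not computed for the alternatives.

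Without position correction 0 probes passed for both Pb arrays, against 14, and the late median was -0.48. In Pb replicate 1 the late median was 1.08, early minus late was -0.48 and 30 probes passed, against 18. In Pb replicate 2 the early median was 0.64, the late median -2.47, early minus late 3.11, 3 genes were above all controls and 19469 probes passed, against 2742. There Ctsg (-2.95), Ltf (-2.47), S100a8 (-2.82) and S100a9 (-1.32) turned to called lower values, while Mpo (1.44), Prtn3 (1.15) and Ngp (-3.24) gained calls. With rows only, medians for both Pb arrays were -0.18 (early) and 0.0074 (late). Then 11 probes passed in Pb replicate 1, with early minus late at -0.37. Medians in Pb replicate 2 were -0.64 (early) and -0.93 (late), early minus late 0.29, 0 genes were above all controls and 10346 probes passed. Ctsg (-0.99), S100a8 (-1.27) and S100a9 (-0.85) turned, and Ngp (-1.72) gained a call. For all 6 arrays as deposited 0 probes passed, medians were -1.35 (early) and -2.42 (late), and early minus late was -0.48 and 3.11 in Pb replicates 1 and 2. A correction against the controls alone put 2 genes above all controls in Pb replicate 2. For Pb replicate 1, 11 probes passed with 15 basis functions, 34 with a pseudocount of 1 (early minus late -0.39) and 10 with a filter at the 50th percentile. With no filter 0 probes passed for both Pb arrays, 0 for Pb replicate 1 and 178 for Pb replicate 2. Array weights left 7 for both Pb arrays. Nearby probes, added after the data had been seen, gave Pb replicate 2 a late median of -0.36 and early minus late of 0.60. The cause of these shifts was not tested.

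Leaving out 1 array at a time gave 4 to 2742 probes for both Pb arrays (the 2742 without Pb replicate 1), with early medians of 0.11 to 0.76 and late medians of 0.027 to 0.82. In Pb replicate 1 it gave 2 to 9 probes and 10 genes above all controls each time. For Pb replicate 2 it gave 1102 to 1828 probes and 1 to 8 genes above all controls, the 8 without control replicate 1. With the replicate block 11 probes passed, medians were 0.15 (early) and 0.26 (late), and no call of the 10 genes changed. The labels do not say that a number pairs animals, and over all probes same-numbered deviations correlated at 0.03 and -0.0039. These values are not independent, since 2 Pb arrays deviate from their own mean by equal and opposite amounts. For all 10 granule genes the arrays numbered 1 were the highest of the arrays used in their group. Whether the numbers pair arrays was not tested. Signal over background is unknown, since no detection calls were used.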
